A study of Homo sapiens with 10 samples.

Results

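A set of 10 neuronal RNA-binding protein genes was followed over 5 groups of human neurospheres. They were ELAVL2, ELAVL3, ELAVL4, NOVA1, NOVA2, RBFOX1, RBFOX2, RBFOX3, CELF4 and PTBP2, taken as the rows of the deposited count table that carry these gene symbols. All 10 were found among the 46427 genes of the table, and all 10 had enough counts to be tested. The neurospheres came from the immortalised human neural progenitor line ReNcell VM and differentiated on laminin for 6 days in the presence of the test substance. The series asks whether short-chain di-n-alkyl phthalates, plasticiser esters that differ in the length of their alkyl chains, disturb neural development in such a culture. The 4 treated groups received DEP, DProP, DPP or a mixture labelled Mix, each at 100 µM, and the vehicle group received 0.1% DMSO. DEP is diethyl phthalate and DProP commonly stands for di-n-propyl phthalate. DPP is not written out in the labels and the components of Mix are not listed, so no structure is given for either. Each group had 2 libraries, and each library pooled 6 neurospheres. Nothing in the labels ties the libraries of 1 group to separate cultures. The tests therefore weigh differences against library-to-library spread that may be only technical. In such bulk RNA, fewer cells of a type and less RNA per cell cannot be told apart.

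RNA-binding proteins of these families set which exons a neuron includes in its transcripts and how long its messenger RNAs last. ELAVL2, ELAVL3 and ELAVL4 (the HuB, HuC and HuD proteins) are largely restricted to neurons, bind U-rich and AU-rich stretches and stabilise transcripts used in neurite growth, while their relative ELAVL1 (HuR) is made in most cells. NOVA1 and NOVA2 regulate alternative splicing in the nervous system, RBFOX3 is the NeuN antigen used to label mature neurons, and PTBP2 takes over from PTBP1 when a progenitor becomes a neuron.

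The upstream regions of a set of these genes are shown first, since ELAVL2, ELAVL4 and NOVA2 were lower in several treated groups while NOVA1 was called in none. Each line gives the 250 bases before the RefSeq start site (GRCh38.p14) on the strand of the gene, 5′ to 3′. Capitals mark the E-box core CANNTG, the motif read by basic helix-loop-helix factors such as the neurogenic ones. The regions are chr9:23826241-23826490 on the minus strand for ELAVL2, chr1:50109583-50109832 on the plus strand for ELAVL4, chr19:45973866-45974115 on the minus strand for NOVA2 and chr14:26598034-26598283 on the minus strand for NOVA1. For ELAVL2 and ELAVL4 this start site lies inside the full span of the gene, which has other starts.
ELAVL2: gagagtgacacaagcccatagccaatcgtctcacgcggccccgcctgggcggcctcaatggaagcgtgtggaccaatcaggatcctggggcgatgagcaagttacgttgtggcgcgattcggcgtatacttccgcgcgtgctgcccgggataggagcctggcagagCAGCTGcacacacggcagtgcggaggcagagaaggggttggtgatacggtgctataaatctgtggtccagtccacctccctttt
ELAVL4: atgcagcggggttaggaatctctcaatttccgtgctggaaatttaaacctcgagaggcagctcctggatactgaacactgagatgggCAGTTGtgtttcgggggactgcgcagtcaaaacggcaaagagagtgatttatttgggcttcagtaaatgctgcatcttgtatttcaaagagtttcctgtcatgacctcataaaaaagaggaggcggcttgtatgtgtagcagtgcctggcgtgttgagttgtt
NOVA2: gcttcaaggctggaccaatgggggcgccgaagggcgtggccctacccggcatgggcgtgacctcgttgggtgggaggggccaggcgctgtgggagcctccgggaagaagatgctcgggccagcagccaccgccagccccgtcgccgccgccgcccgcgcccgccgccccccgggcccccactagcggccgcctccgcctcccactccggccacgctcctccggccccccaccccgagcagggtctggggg
NOVA1: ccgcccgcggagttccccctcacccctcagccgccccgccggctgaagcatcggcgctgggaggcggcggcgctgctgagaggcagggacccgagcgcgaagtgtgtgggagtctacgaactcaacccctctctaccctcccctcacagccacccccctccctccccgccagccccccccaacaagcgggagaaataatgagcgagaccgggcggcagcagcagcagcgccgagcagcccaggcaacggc
The ELAVL2 window held 1 E-box core, CAGCTG, and the ELAVL4 window held 1, CAGTTG. The NOVA1 and NOVA2 windows held 0. Of the 4 matched windows not shown, RBFOX1 and PTBP2 held 2 each and RBFOX3 and CELF4 held 1 each, and none of these genes was called lower. The motif reads the same class of sites on both strands, so 1 search covered both. A CANNTG was present in 62.2% of 27305 promoter windows of the same length and CAGCTG in 13.8%. GC made up 78% of the NOVA2 window, 71.6% of the NOVA1 window, 60.4% of the ELAVL2 window and 46.8% of the ELAVL4 window.

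Against vehicle, the neuronal ELAVL genes and NOVA2 were called lower in some or all treatments, and no member was called higher. Calls rest on edgeR's quasi-likelihood test with Benjamini-Hochberg adjustment over 19465 genes and a threshold of 0.05. In all, 23.6%, 32.2%, 36.2% and 20.4% of the genes tested were called after DEP, DProP, DPP and Mix. After DEP 3 of 10 members were lower (ELAVL2, ELAVL3 and NOVA2), where 13.5% of all tested genes were called lower. DProP lowered 4 (ELAVL2, ELAVL3, ELAVL4 and NOVA2), with 17.5% of all genes lower. DPP lowered the same 4, with 19.5% of all genes lower. Mix lowered 2 (ELAVL3 and NOVA2), with 10.7% of all genes lower. The counts of members called higher were 0 in all 4 comparisons, where 10.1%, 14.7%, 16.7% and 9.71% of all genes were called higher after DEP, DProP, DPP and Mix. The median log2 change of the 10 members was -0.23 after DEP, -0.53 after DProP, -0.28 after DPP and -0.27 after Mix, beside medians of 0.01, 0.02, 0.02 and 0.02 over all tested genes. These 4 comparisons share the vehicle libraries.

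**Figure D1:**
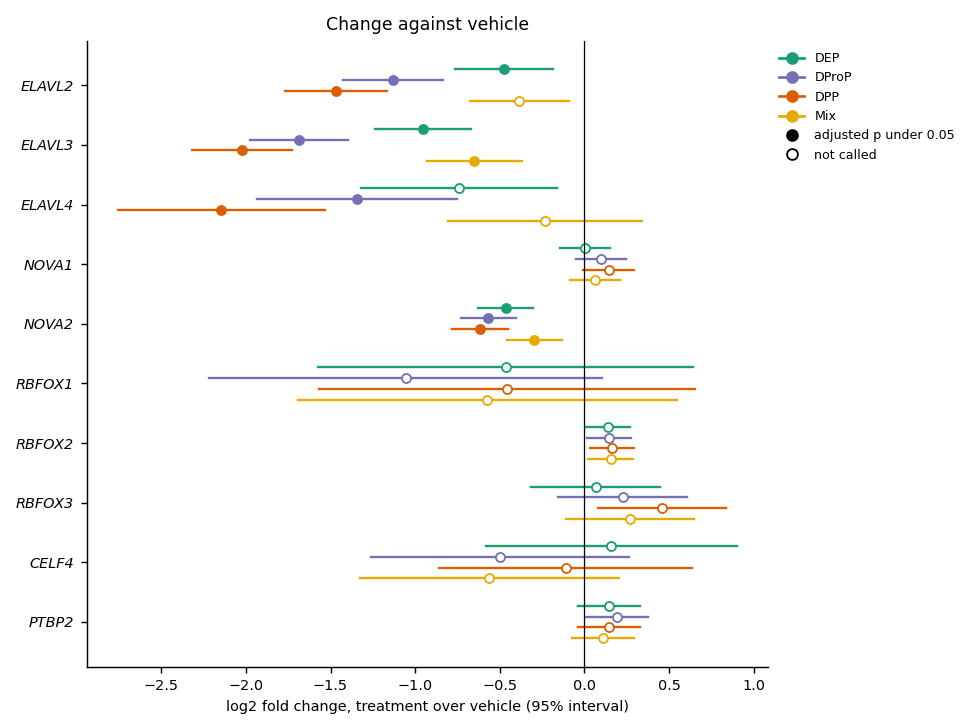
Log2 fold change of each member, treatment over vehicle, with its 95% interval, for DEP, DProP, DPP and Mix; filled points have an adjusted p under 0.05. ELAVL2, ELAVL3, ELAVL4 and NOVA2 lie left of 0 in all 4 treatments, with ELAVL4 reaching -2.14 after DPP, while NOVA1, RBFOX2, RBFOX3 and PTBP2 lie at or slightly right of 0 and RBFOX1 and CELF4 have wide intervals.

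The libraries held 57222381 to 72973100 counts, and the median 95% interval of a log2 change reached 0.26 to each side. Beside every comparison with vehicle stands a difference in the make-up of the counts between the 8 treated libraries and the 2 vehicle libraries. Mitochondrial protein-coding transcripts took 0.0825% to 0.107% of counts in treated libraries and 0.0255% to 0.0343% in vehicle libraries. MALAT1, a nuclear non-coding RNA, took 0.342% to 0.394% in treated libraries and 0.946% to 1.25% in vehicle libraries. As the libraries were made by exome capture, capture and abundance cannot be told apart for such transcripts. Log2 changes against vehicle also ran with GC content across 14822 protein-coding genes (Spearman's rho -0.34 to -0.28, genes not being independent replicates). The part of these differences in the members' changes was not tested beyond the correction for GC content and length given below. The scaling matters too. Dividing by library size alone, without TMM factors, moved the median log2 change of all genes up by 0.14 to 0.18 in the comparisons with vehicle. With TMM the calls split into 1964 higher and 2637 lower for DEP, 2864 and 3402 for DProP, 3256 and 3793 for DPP and 1891 and 2079 for Mix. With library size alone they split into 4794 higher and 1259 lower for DEP, 5850 and 1699 for DProP, 5820 and 2200 for DPP and 4605 and 1020 for Mix. All changes below are therefore relative to the bulk of the genes.

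ELAVL3 (gene ID 1995, chr19:11451326-11481046), the HuC gene, fell in all 4 treatments. It had 37.0 and 38.4 CPM (read counts scaled to library size with TMM factors) in DEP libraries, 21.9 and 23.5 with DProP, 21.0 and 14.9 with DPP, and 43.0 and 49.9 with Mix, against 71.8 and 74.2 in vehicle libraries. No treated library reached the vehicle range, DPP was lowest and Mix was the nearest to vehicle. The log2 change was -0.95 ± 0.13 (SE) after DEP with an adjusted p of 0.000667, and -1.69 ± 0.13 after DProP with an adjusted p of 1.28e-05 (edgeR quasi-likelihood test). After DPP it was -2.02 ± 0.13 with an adjusted p of 3.86e-06, which is 24.6% of the vehicle mean. After Mix it was -0.65 ± 0.13 with an adjusted p of 0.0056. The Mix call rested on library Mix 1, without which the change was -0.55 with an adjusted p of 0.0595. With a correction for GC content and transcript length the 4 changes of ELAVL3, whose longest transcript is 58% GC, were -0.78, -1.49, -1.83 and -0.51, all still called. In GENCODE v29, 5.38% of the exon bases of ELAVL3 are shared with another protein-coding gene on the same strand, AC008481.3.

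ELAVL2 (gene ID 1993, chr9:23690104-23850601), the HuB gene, fell in DEP, DProP and DPP. Its levels were 12.5 and 12.1 CPM in DEP libraries, 7.98 and 7.61 with DProP, 7.20 and 5.13 with DPP and 13.3 and 12.9 with Mix, against 17.6 and 16.6 in vehicle libraries. All treated libraries lay below both vehicle libraries. The log2 change was -1.13 ± 0.14 after DProP with an adjusted p of 0.000125 and -1.47 ± 0.14 after DPP with an adjusted p of 1.56e-05 (edgeR quasi-likelihood test). After DEP it was smaller, -0.47 ± 0.13 with an adjusted p of 0.0237, and this call was lost without any 1 of the DEP or vehicle libraries. Adjusted p was then 0.1 without DEP 1, 0.124 without DEP 2, 0.104 without vehicle 1 and 0.0562 without vehicle 2, and with library size alone it was 0.0906. After Mix the change was -0.38 ± 0.13 and missed the threshold (adjusted p = 0.0612). It passed the threshold under 5 alternatives, among them the stricter filter (0.0465), limma-voom (0.031) and edgeR on the 2 groups alone (0.0351).

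ELAVL4 (gene ID 1996, chr1:50048055-50203772), the HuD gene, fell in DProP and DPP. DEP libraries had 11.5 and 14.0 CPM, DProP libraries 7.37 and 9.43, those with DPP 6.35 and 3.29 and those with Mix 16.8 and 19.6, against 21.9 and 20.8 CPM in vehicle libraries. The 2 DPP libraries were nearly a factor of 2 apart, and the groups did not overlap vehicle. The change was -1.34 ± 0.26 after DProP with an adjusted p of 0.00506, and -2.14 ± 0.27 after DPP with an adjusted p of 0.000455 (edgeR quasi-likelihood test). DEP gave -0.74 ± 0.25 and missed the threshold with an adjusted p of 0.0661, although DESeq2 (0.00558) and limma-voom (0.0169) called it. After Mix the change of -0.23 had a 95% interval from -0.81 to 0.34.

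**Figure D2:**
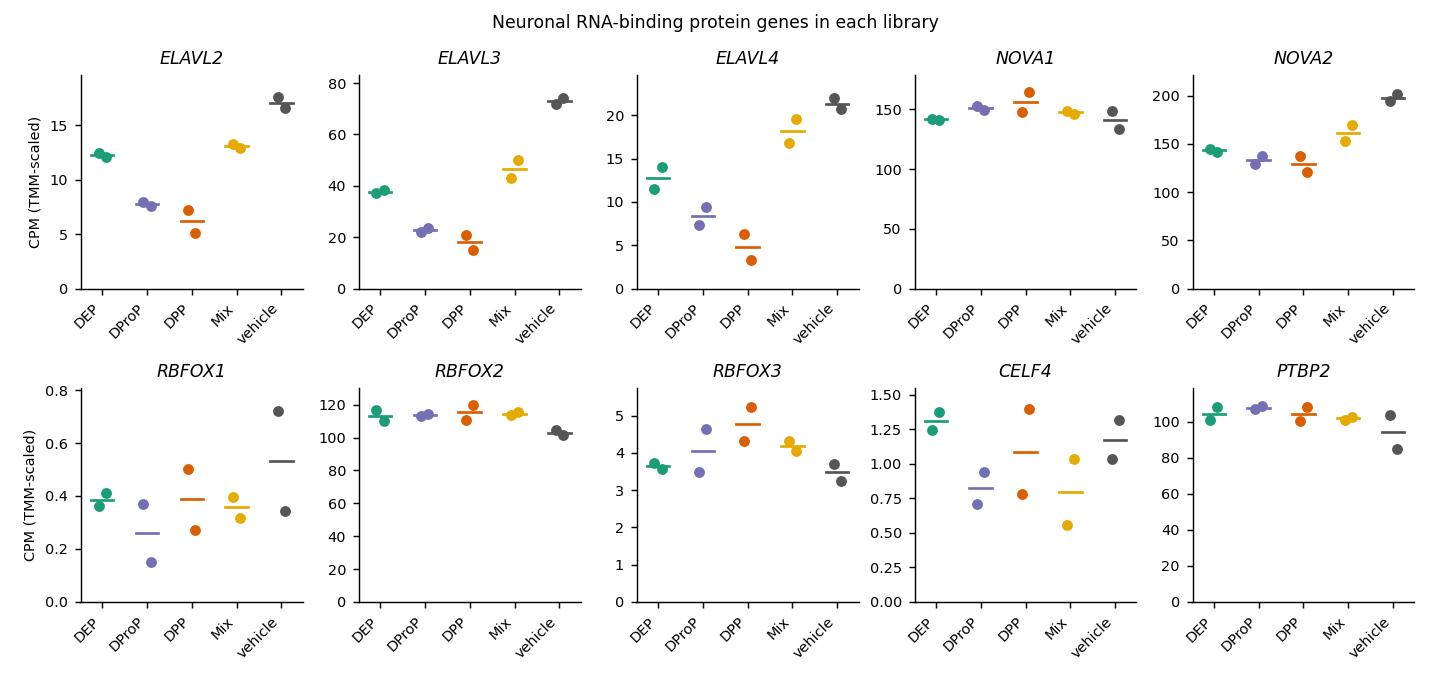
TMM-scaled CPM of each member in each library (points) with the group mean (bar), for DEP, DProP, DPP, Mix and vehicle, every axis starting at 0. The ELAVL genes and NOVA2 share a pattern in which vehicle is highest, Mix and DEP lie between and DProP and DPP are lowest, as in ELAVL3 with group means of 37.7, 22.7, 17.9, 46.5 and 73.0 CPM in the order of the axis.

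Within the neuronal ELAVL trio, ELAVL3 held the largest share of read counts in all 10 libraries. ELAVL3 made up 60.1% ± 0.83 of the trio's read counts in DEP, 58.3% ± 0.58 in DProP, 62.3% ± 2.23 in DPP and 59.7% ± 1.23 in Mix, against 65.5% ± 1.41 in vehicle (SD, n = 2 libraries per group). Every treated library was below both vehicle libraries in this share. DPP 2 was close, at 63.9% with a 95% Wilson interval for counting error from 61.5% to 66.3%. That interval overlapped those of vehicle 1 (63.4% to 65.6%) and vehicle 2 (65.3% to 67.7%). The shares within the trio were not corrected for GC content. The longest transcripts of ELAVL2, ELAVL3 and ELAVL4 are 36.2%, 58.0% and 36.9% GC. The part of the GC trend in these shares was not tested. ELAVL4 made up 20.3% ± 2.00 in DEP, 21.5% ± 2.45 in DProP, 16.2% ± 3.04 in DPP and 23.4% ± 0.57 in Mix, against 19.2% ± 0.76 in vehicle, and DPP was the lowest. The ELAVL2 share was 19.6% ± 1.18 in DEP, 20.1% ± 1.87 in DProP and 21.4% ± 0.81 in DPP, against 15.3% ± 0.65 in vehicle. In Mix it was 16.9% ± 1.80, and library Mix 2 (15.6%) lay within the vehicle range. With 2 libraries against 2, an exact permutation test cannot give a two-sided p below 0.333, so shares are reported without a test. Their 95% Wilson intervals reach at most 2.39 percentage points to each side for ELAVL3 and cover counting error only.

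NOVA2 fell in all 4 treatments, while its paralog NOVA1, also a splicing regulator, was called in none; the difference between these changes was not tested by itself. NOVA2 (gene ID 4858, chr19:45933734-45973865) had 145 and 142 CPM in DEP libraries, 129 and 138 with DProP, 137 and 121 with DPP and 153 and 169.5 with Mix, against 194 and 202 in vehicle libraries. All treated libraries lay below vehicle, with less distance between the treatments than for the ELAVL genes. Its log2 change was -0.46 after DEP, -0.57 after DProP, -0.62 after DPP and -0.30 after Mix, each with an SE of 0.07, and edgeR's adjusted p was 0.00136, 0.000222, 8.7e-05 and 0.0161. The Mix call was lost without Mix 1 (adjusted p = 0.144), without vehicle 2 (0.0775) and with library size alone (0.153). Correction for GC content and length reduced the changes of NOVA2, whose longest transcript is 57% GC, to -0.31, -0.42, -0.44 and -0.19, all still called.

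NOVA1 (gene ID 4857, chr14:26443090-26598033) was not called in any comparison. Its levels were 142 and 141 CPM in DEP libraries, 153 and 149.6 with DProP, 148 and 164 with DPP and 149 and 147 with Mix, against 149 and 134 in vehicle libraries. The DEP, DPP and Mix libraries overlapped the vehicle range. The 95% intervals of its log2 changes were -0.15 to 0.15 after DEP, -0.05 to 0.25 after DProP, -0.01 to 0.29 after DPP and -0.09 to 0.21 after Mix. Scaled by library size alone, NOVA1 was called higher after DProP, DPP and Mix, by 0.27, 0.30 and 0.20. NOVA2 accounted for 50.3% ± 0.34 of the NOVA read counts in DEP, 46.8% ± 1.60 in DProP, 45.3% ± 4.13 in DPP and 52.2% ± 2.08 in Mix, against 58.4% ± 2.51 in vehicle (SD, n = 2). This ratio does not depend on the scaling between libraries, and every treated library was below both vehicle libraries. It was not corrected for GC content, and the longest transcripts of NOVA2 and NOVA1 are 57.0% and 37.8% GC. The part of the GC trend in this share was not tested.

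The 3 RBFOX genes encode splicing factors that bind GCAUG, and none of them was called. RBFOX2 (gene ID 23543, chr22:35738736-36028824), the most widely expressed of them, had 117 and 109.9 CPM in DEP libraries, 113 and 114 with DProP, 111 and 119.7 with DPP and 114 and 115 with Mix, against 104 and 101 in vehicle libraries. All 8 treated libraries were above both vehicle libraries. The fitted group changes were 0.14 to 0.16 on the log2 scale, and adjusted p ran from 0.0518 to 0.111. RBFOX2 was called higher in all 4 treatments, by 0.30 to 0.32, when scaled by library size alone.

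RBFOX3 (gene ID 146713, chr17:79089345-79665571), the NeuN gene, did not follow the ELAVL genes down. It had 3.73 and 3.57 CPM in DEP libraries, 3.49 and 4.63 with DProP, 4.32 and 5.22 with DPP and 4.33 and 4.06 with Mix, against 3.71 and 3.24 in vehicle libraries. DPP and Mix libraries lay above vehicle, and DEP and DProP libraries overlapped it. The DPP change of 0.46 ± 0.17 missed the threshold (adjusted p = 0.0587, edgeR quasi-likelihood test) and passed it under 6 alternatives, among them the GC correction (0.0179). RBFOX1 (gene ID 54715, chr16:5239721-7713340), a brain and muscle member of the family, was near the limit of detection with 11 to 46 counts per library, 0.15 to 0.502 CPM in treated libraries and 0.342 and 0.72 in vehicle libraries. The interval of its change after DProP ran from -2.22 to 0.10, so this depth cannot show a moderate change.

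CELF4 (gene ID 56853, chr18:37242844-37565798), a neuronal regulator of splicing and messenger RNA stability, was also scarce, with 41 to 97 counts per library. It had 1.24 and 1.37 CPM in DEP libraries, 0.709 and 0.943 with DProP, 0.781 and 1.39 with DPP and 0.56 and 1.04 with Mix, against 1.03 and 1.31 in vehicle libraries. Only the DProP libraries were clear of vehicle, and the 95% interval after DProP ran from -1.26 to 0.27. PTBP2 (gene ID 58155, chr1:96721784-96823739), the neural polypyrimidine tract-binding protein gene, had 101 and 108 CPM in DEP libraries, 107 and 109 with DProP, 101 and 108 with DPP and 101 and 103 with Mix, against 104 and 85.0 in vehicle libraries. Its vehicle libraries were further apart than any treated pair. The log2 changes were 0.15, 0.19, 0.14 and 0.11 after DEP, DProP, DPP and Mix with an SE of 0.08 each, and none was called. The values turn on which vehicle library is kept: without vehicle 1 all 4 were called higher, at 0.30, 0.34, 0.30 and 0.26, and without vehicle 2 they were 0.01, 0.06, 0.01 and -0.03. Scaled by library size alone, PTBP2 was also called higher in all 4, at 0.30, 0.37, 0.30 and 0.25.

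Per kilobase of the longest GENCODE v29 transcript, the order of the members' levels differed between DPP and vehicle libraries. In DPP libraries NOVA1 led with 22.5 and 24.99 CPM per kilobase, followed by NOVA2 and RBFOX2, whose values overlapped (17.6 and 15.5 against 16.0 and 17.3), and PTBP2 at 8.37 and 9.01. ELAVL3 came next with 4.44 and 3.15. In vehicle libraries NOVA2 led with 24.9 and 25.8 CPM per kilobase, then NOVA1 (22.7 and 20.3), ELAVL3 (15.2 and 15.7), RBFOX2 (15.1 and 14.6), PTBP2 (8.64 and 7.08), ELAVL4 (5.53 and 5.24) and ELAVL2 (4.62 and 4.35). ELAVL3 and RBFOX2 stood side by side in vehicle, closer than the spread of NOVA1 between its vehicle libraries, whereas in DPP libraries ELAVL3 lay far below RBFOX2. RBFOX3, CELF4 and RBFOX1 were the lowest in vehicle, at means of 1.13, 0.29 and 0.111 CPM per kilobase. Capture efficiency per gene is not known, so these levels describe the libraries.

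The treatments were compared with one another in 6 pairs, all at 100 µM, which do not use the vehicle libraries in the contrast. A joint test of any difference among the 4 treatments called ELAVL2, ELAVL3, ELAVL4 and NOVA2, with adjusted p values of 0.000897, 0.00036, 0.0095 and 0.0432 (edgeR quasi-likelihood F test), where 12.4% of all genes were called. The NOVA2 value lost the threshold under 11 alternatives, up to an adjusted p of 0.234 without Mix 2. DEP and DProP, whose esters differ by the length of the alkyl chain, differed in ELAVL3, which was 1.66-fold higher in DEP (log2 0.73 ± 0.13, adjusted p = 0.0386). It was 1 of 10 members, and 0.134% of all genes were called higher in that pair (0.39% lower, 0.524% in all). The ELAVL3 call was lost without any 1 library of DEP, DProP or vehicle, where adjusted p ran from 0.0784 to 0.29, and with the replicate number as a block (0.0624), although the change stayed between 0.68 and 0.79. For ELAVL2 the same difference was 0.66 with an interval from 0.36 to 0.95 (adjusted p = 0.0597), and for ELAVL4 0.60 with an interval from 0.01 to 1.19.

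DEP against DPP showed larger differences in the ELAVL genes. ELAVL2 was 1.99-fold higher in DEP (adjusted p = 0.00274), ELAVL3 2.1-fold (0.00208) and ELAVL4 2.65-fold (0.0309, edgeR quasi-likelihood test), so that 3 of 10 members were called higher where 1.58% of all genes were, and 0 lower where 1.36% were (2.93% in all). The ELAVL4 call was lost under 10 alternatives, up to an adjusted p of 0.193 without DEP 2, while its log2 value stayed between 1.26 and 1.54 in them. DProP and DPP did not differ by the test in any member, and 0.262% of all genes were called in that pair (0.118% higher and 0.144% lower). The intervals of the difference still leave room for one, from 0.04 to 0.63 for ELAVL3, 0.03 to 0.64 for ELAVL2 and 0.19 to 1.41 for ELAVL4 on the log2 scale. DESeq2 called ELAVL4 there with an adjusted p of 0.0216, and without DPP 1 edgeR called ELAVL3 (0.60, 0.0319) and ELAVL4 (1.36, 0.012). Without DPP 2 the differences were 0.11 for ELAVL3 and 0.41 for ELAVL4 and were not called, so they rest on which DPP library is kept. In that pair 3 of 10 members (ELAVL2, ELAVL3 and ELAVL4) had an unadjusted p under 0.05, as did 12.1% of all genes.

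Mix was set against each single compound at the same labelled concentration. Against DEP no member was called by DESeq2 or by edgeR over all groups, although edgeR on the 2 groups alone called ELAVL3 (0.30, adjusted p = 0.0448) and ELAVL4 (0.50, 0.0202), and 3.86% of all genes were called over all groups (2.85% higher and 1.02% lower). The ELAVL3 difference from DEP was 0.30 with an interval from 0.02 to 0.58, and the unadjusted p was under 0.05 for 2 of 10 members, ELAVL3 and NOVA2, and for 18.9% of all genes. Against DProP 3 members were higher in Mix (ELAVL2 by 1.68-fold, ELAVL3 by 2.05-fold and ELAVL4 by 2.16-fold), where 4.36% of all genes were called higher (2.53% lower, 6.89% in all). The ELAVL4 call in that pair had an adjusted p of 0.0386 and was lost under 13 alternatives, up to 0.195 without DProP 1. ELAVL2 lost it without DProP 2 (0.0533) and without Mix 1 (0.0615). NOVA2 missed the threshold in that pair (log2 0.27, adjusted p = 0.0501) and passed it under 7 alternatives, among them DESeq2 (0.00913), limma-voom (0.0492) and the GC and length correction (0.036).

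Against DPP 4 members were higher in Mix, where 10.4% of all genes were called higher (6.82% lower, 17.3% in all). They were ELAVL2 (2.12-fold, adjusted p = 0.000367), ELAVL3 (2.59-fold, 0.000112), ELAVL4 (3.76-fold, 0.0021) and NOVA2 (1.25-fold, 0.0128; edgeR quasi-likelihood test). NOVA2 lost the call without DPP 2 (0.13) and without Mix 2 (0.105). With p values adjusted over all genes and the 6 pairs together, ELAVL2 was called between DEP and DProP as well (0.0182). NOVA1, RBFOX1, RBFOX2, RBFOX3, CELF4 and PTBP2 were called in none of the 6 pairs.

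**Figure D3:**
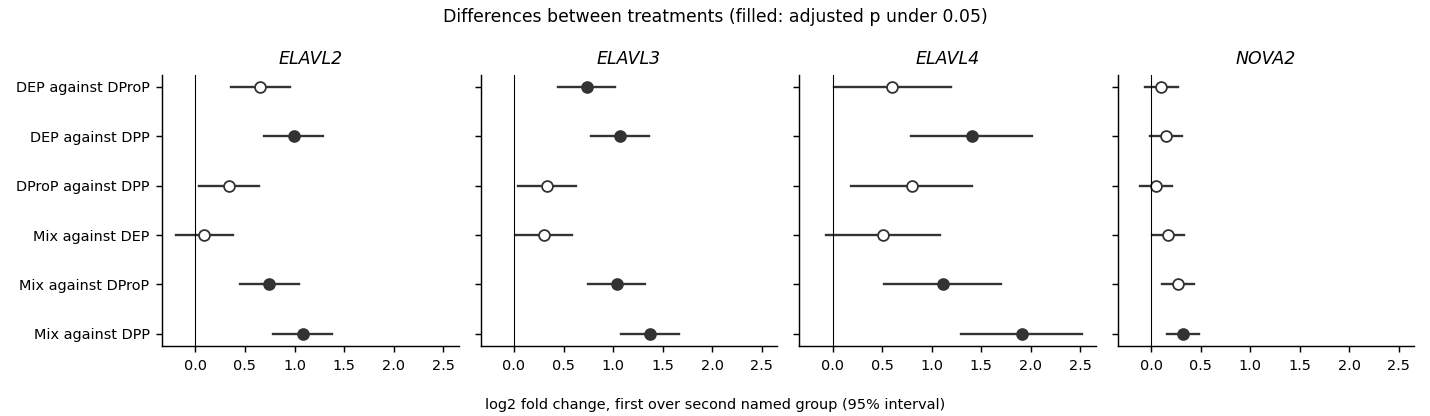
Log2 fold change between treatments, the first named over the second, with 95% intervals, for ELAVL2, ELAVL3, ELAVL4 and NOVA2; filled points have an adjusted p under 0.05. The 3 ELAVL genes lie to the right of 0 in DEP against DPP and in Mix against DProP and DPP, with the largest value, 1.91, for ELAVL4 in Mix against DPP.

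The paralogs outside the 10 genes show how each family's make-up moved. Of 8 paralogs 4, 3, 5 and 1 were lower and 1, 1, 1 and 0 higher after DEP, DProP, DPP and Mix. In the same order, 13.5%, 17.5%, 19.5% and 10.7% of all tested genes were called lower and 10.1%, 14.7%, 16.7% and 9.71% higher. ELAVL1, the ubiquitous relative, had means of 121, 119.8, 125 and 117 CPM in DEP, DProP, DPP and Mix against 122 in vehicle, and its log2 changes of -0.06 to 0.03 were not called. Scaling by library size alone called ELAVL1 higher after DPP, by 0.19. The neuronal trio ELAVL2 to ELAVL4 therefore made up 33.2% and 35.2% of all ELAVL read counts in DEP libraries, 23.9% and 25.1% with DProP, 21.6% and 15.9% with DPP and 37.7% and 42.0% with Mix, against 48.4% and 47.1% in vehicle libraries. The 5 groups did not overlap in this share, and a Wilson interval reached at most 0.871 percentage points to each side.

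PTBP1, the repressor that PTBP2 replaces, fell in all 4 treatments. Its mean was 225, 227, 225 and 242 CPM in DEP, DProP, DPP and Mix against 307 in vehicle, with log2 changes of -0.45, -0.44, -0.45 and -0.34 and adjusted p values of 0.000638, 0.00043, 0.000274 and 0.00368 (edgeR quasi-likelihood test). Correction for GC content and length reduced these to -0.20, -0.16, -0.18 and -0.13, and the Mix call was then lost (0.0949). PTBP2 took 31.7% ± 0.82 of the PTBP1 and PTBP2 read counts in DEP, 32.3% ± 1.19 in DProP, 31.7% ± 1.82 in DPP and 29.6% ± 0.89 in Mix, against 23.5% ± 3.11 in vehicle (SD, n = 2). So the PTBP2 share was higher in all treated libraries, while the share of the neuronal ELAVL trio among all ELAVL read counts and that of NOVA2 were lower. The 2 vehicle libraries had PTBP2 shares of 25.7% and 21.3%. None of these shares was corrected for GC content, and the longest transcripts of PTBP1 and PTBP2 are 61.7% and 34.7% GC. The part of the GC trend in them was not tested. PTBP3 was not called.

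In the CELF family, CELF3, a brain-enriched member, fell in the same 3 treatments as ELAVL2. It fell by 0.56 on the log2 scale after DEP (adjusted p = 0.0105), by 1.14 after DProP (0.000135) and by 1.34 after DPP (2.99e-05), and its -0.36 after Mix was not called (0.0757, edgeR quasi-likelihood test). CELF5 was lower after DProP (-0.95) and DPP (-1.32), from 28 to 114 counts per library, and the DProP call was lost with library size alone (0.0691). CELF6 was lower after DEP (-0.69) and DPP (-0.84), but 88.7% of its annotated exon bases are shared with another gene on the same strand, so its value is uncertain. CELF2 was lower after DEP (-0.27) and DPP (-0.32), calls that were lost with library size alone, and the broadly expressed CELF1 was higher after DEP (0.20), DProP (0.18) and DPP (0.28). CELF3 to CELF6 together took 11.7% ± 0.40 of the family's read counts in DEP, 8.48% ± 0.63 in DProP, 7.63% ± 1.00 in DPP and 12.2% ± 1.5 in Mix, against 15.5% ± 0.54 in vehicle (SD, n = 2). This share was not corrected for GC content either. No stretch of 50 bases was shared between transcripts of different members of a family, so reads of that length or more cannot match 2 relatives exactly in these transcripts.

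**Figure D4:**
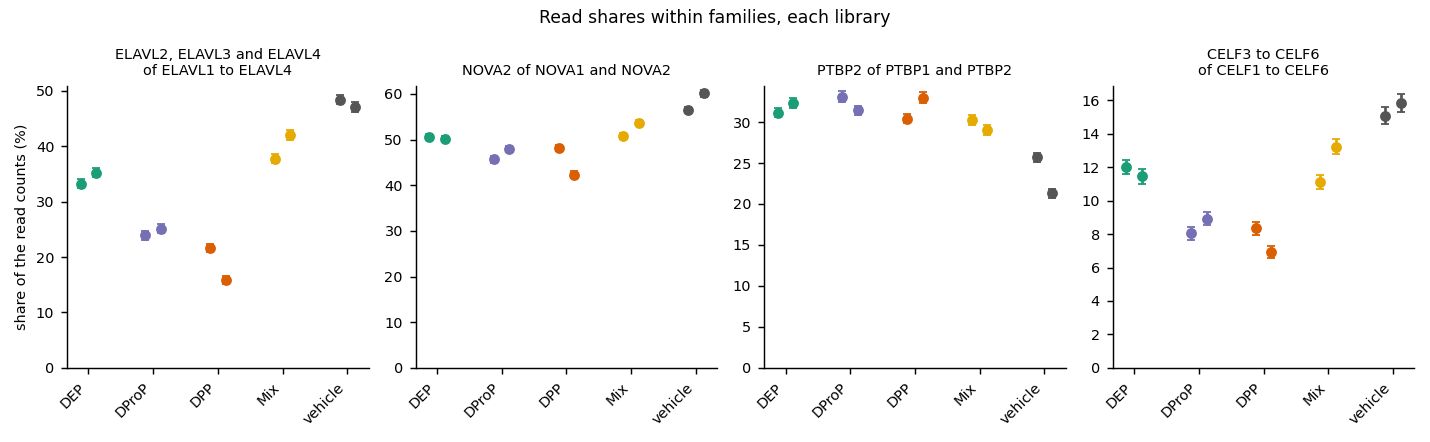
Share of read counts within 4 gene families in each library (points, with 95% Wilson intervals for counting error), in percent, for DEP, DProP, DPP, Mix and vehicle. The neuronal ELAVL, NOVA2 and CELF3 to CELF6 shares are highest in vehicle (47.7%, 58.4% and 15.5%), whereas the PTBP2 share is lowest there (23.5%). The shares are not corrected for GC content.

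Other RNA-binding protein genes were taken from lists set by function. After DEP, DProP, DPP and Mix, 13.5%, 17.5%, 19.5% and 10.7% of all tested genes were called lower and 10.1%, 14.7%, 16.7% and 9.71% higher. List counts with library size alone stand beside the counts over all genes given above for that scaling. Of 19 tested splicing regulators of neural cells, 7, 7, 10 and 4 were lower after DEP, DProP, DPP and Mix and 0 higher, with median log2 changes of -0.20, -0.15, -0.21 and -0.15. Among them QKI, a regulator of glial transcripts, was lower in all 4 treatments with means of 3124, 3078, 2965 and 3209 CPM in DEP, DProP, DPP and Mix against 5614 CPM in vehicle. MSI1, MSI2 and HNRNPK were lower in all 4 as well, by 0.31 to 0.52 on the log2 scale, though with library size alone MSI1 lost its DEP and Mix calls and MSI2 its Mix call. SRRM4, the activator of neuronal microexons, was singled out after its values were seen: it fell by 0.47 after DEP, by 1.11 after DProP and by 1.92 after DPP, and its -0.40 after Mix was not called. The SRRM4 call after DEP was lost with library size alone (0.139). With library size alone the lower calls in this list were 3, 6, 6 and 2 and the higher ones 0, 0, 1 and 1.

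Of 23 tested messenger RNA stability and translation genes, 5, 6, 6 and 7 were lower and 2, 5, 4 and 1 higher after DEP, DProP, DPP and Mix, with medians of -0.09, -0.09, 0.01 and -0.04. The shares over all tested genes were 13.5%, 17.5%, 19.5% and 10.7% lower and 10.1%, 14.7%, 16.7% and 9.71% higher. PCBP1 and PCBP2, which encode poly(C)-binding proteins, were lower in all 4 treatments, with log2 changes for PCBP2 of -0.44, -0.56, -0.54 and -0.48. The PCBP1 call after Mix was lost with library size alone (0.0604). CNOT1, the scaffold of the CCR4-NOT deadenylase, was higher in all 4, by 0.30, 0.37, 0.42 and 0.21, the last of which was lost with the GC and length correction. This list depends on the scaling, since with library size alone it had 3, 3, 3 and 2 lower calls and 6, 7, 10 and 2 higher ones. The counts over all genes moved the same way with that scaling, as given above. Of 14 spliceosome core genes 6, 6, 7 and 5 were lower and 0, 0, 1 and 0 higher, with U2AF2, SNRNP70, PRPF31 and SF3A1 lower in all 4. The GC and length correction ended all 4 calls of SNRNP70 and turned its Mix value to 0.03, and library size alone ended all 4 of SF3A1. With library size alone the list's counts became 2, 3, 3 and 0 lower and 3, 3, 5 and 1 higher.

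**Figure D5:**
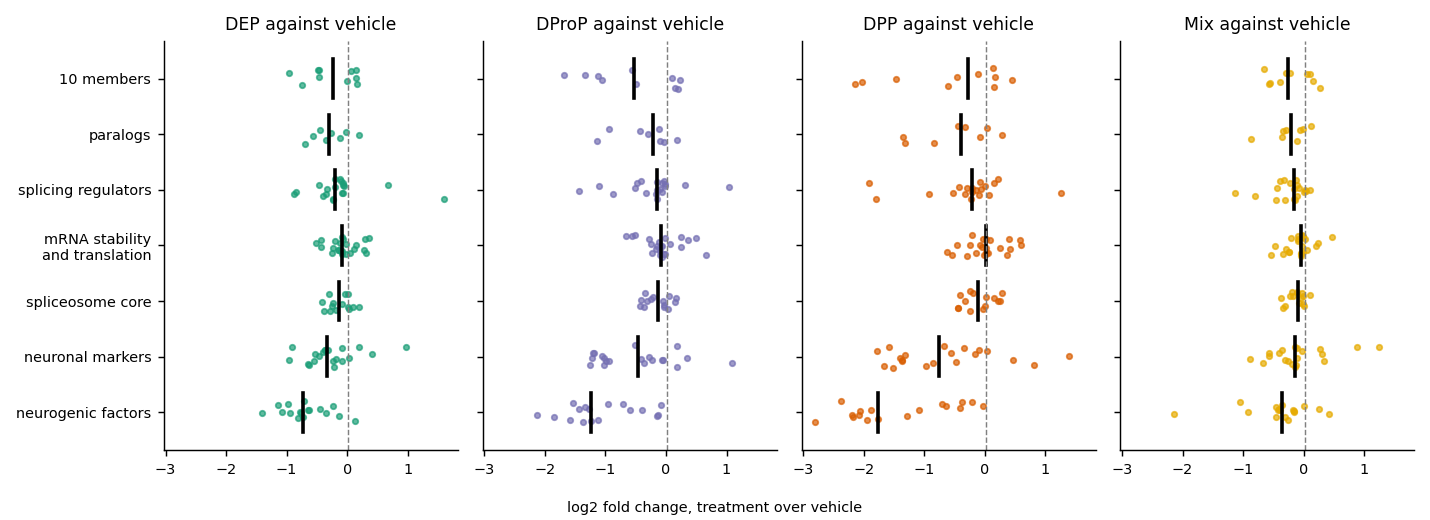
Log2 fold change of each tested gene (points) of 7 lists, treatment over vehicle, with the list median (black bar) and the median of all tested genes (dashed line), for DEP, DProP, DPP and Mix. The medians of the splicing, stability and spliceosome lists run from -0.21 to 0.01, those of the 10 members are -0.23, -0.53, -0.28 and -0.27, and those of the neurogenic factors -0.73, -1.24, -1.76 and -0.35.

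Genes known as targets of these proteins or as their regulators moved in both directions. Over all tested genes, 10.1%, 14.7%, 16.7% and 9.71% were called higher and 13.5%, 17.5%, 19.5% and 10.7% lower, in the order below. Of 13 tested, 4, 5, 6 and 3 were higher and 2, 2, 3 and 0 lower after DEP, DProP, DPP and Mix. Scaled by library size alone, 7, 7, 6 and 5 were higher and 1, 1, 3 and 0 lower. BDNF, a neurotrophin whose messenger RNA is bound by HuD in rodents, rose to 4.21, 4.86, 7.59 and 3.62 CPM in DEP, DProP, DPP and Mix, against 2.62 CPM in vehicle, and its Mix call was lost with the GC and length correction. CDKN1A, the p21 gene and a known target of Hu proteins, was higher after DEP (0.45), DProP (0.43) and DPP (0.78), and its 0.15 after Mix was not called. MAPT, the tau gene, was lower after DEP (-0.53), DProP (-0.52) and DPP (-0.85), and its 0.30 after Mix was not called. With the GC and length correction MAPT lost its DEP and DProP calls (0.057 and 0.0535) and was called higher after Mix (0.42). MIR9-3HG, a host transcript of miR-9, was higher in all 4 treatments, by 1.40 to 1.67 on the log2 scale. The libraries were made by exome capture, so for a non-coding transcript capture and abundance cannot be told apart. GAP43, the growth cone protein gene whose messenger RNA HuD stabilises, was singled out after its values were seen: it rose after DPP (0.46) and Mix (0.33) and was not called after DEP (0.19) or DProP (0.18), although library size alone called it higher in all 4.

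Markers of neurons moved beside the ELAVL genes. Over all tested genes, 13.5%, 17.5%, 19.5% and 10.7% were called lower and 10.1%, 14.7%, 16.7% and 9.71% higher, in the order below. Of 20 neuronal markers 11, 13, 14 and 6 were lower and 1, 2, 3 and 4 higher after DEP, DProP, DPP and Mix, with medians of -0.34, -0.47, -0.76 and -0.14. Their summed level was 2266 to 2399 CPM in DEP libraries, 2090 to 2106 with DProP, 1905 to 2033 with DPP and 2676 to 2688 with Mix, against 3027 to 3076 in vehicle libraries. All 20 had counts. Of 17 neurogenic transcription factors 13, 14, 14 and 5 were lower and 0, 0, 0 and 1 higher, and their summed level stood at 64.0%, 55.4%, 52.0% and 76.2% of vehicle in DEP, DProP, DPP and Mix. Among the markers lower in all 4 treatments, INA, a neurofilament-type subunit, changed by -0.65, -1.02, -1.37 and -0.41 and SNAP25, a synaptic fusion protein gene, by -0.41, -1.02, -1.52 and -0.57. SCG2, a secretory granule protein gene, was higher in all 4, by 0.97, 1.09, 1.39 and 1.24. The neuronal list had 5, 12, 14 and 5 lower and 2, 3, 3 and 5 higher calls with library size alone. The part of the neuronal and neurogenic markers in the fall of the ELAVL genes was not tested. The summed level of progenitor markers was 63.5% to 66.0% of vehicle, that of astrocyte markers 53.3% to 58.1%, that of oligodendrocyte lineage markers 48.1% to 66.1% and that of mesenchymal and smooth muscle markers 45.7% to 55.7%, and their part in the members' changes was not tested. MAG and NKX2-2, markers of the oligodendrocyte lineage, had no count in any library. The summed level of the cycling markers was 100.0%, 167%, 134% and 91.4% of vehicle in DEP, DProP, DPP and Mix. The DProP libraries were far apart in this sum, at 177 and 345 CPM, against 156 and 157 CPM in vehicle libraries. The line's progenitor markers were abundant in all libraries, with NES at 1521 to 1771 CPM in treated libraries and 2333 and 2382 in vehicle libraries.

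As a description over the 10 libraries, the genes whose log2 CPM ran most like ELAVL3 included INSM1 (Pearson's r 0.995), CELF3 (0.993), RUNDC3A (0.991) and PLPPR3 (0.991), among 14198 genes with a mean of at least 1 CPM. INSM1, a transcription factor of newborn neurons, had 31.9, 21.5, 16.5 and 41.5 CPM in DEP, DProP, DPP and Mix, against 55.8 CPM in vehicle. ELAVL2 ranked at place 24 in likeness to ELAVL3 (0.981), ELAVL4 at place 153 (0.956) and NOVA2 at place 194 (0.950), while NOVA1 had an r of -0.72. The 10 libraries fall into 5 groups of the same treatment, so they are not independent points. The genes most like NOVA1 were RC3H1 (0.943), HELZ (0.942), ZDHHC21 (0.938), DNAJB14 (0.934) and ZNF800 (0.934).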

How the data were processed

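RNA-seq libraries of ReNcell VM neurospheres were made by exome capture, per the labels' protocols. The authors deposited raw read counts per gene for 10 libraries. Trimmomatic 0.38, HISAT2 2.1.0, StringTie 2.1.3b and GRCh38 are named in the submitters' processing notes. The counting tool, annotation release, strand setting and treatment of multi-mapping reads are not given in these sources, so overlapping and antisense genes cannot be separated. Counts were filtered (filterByExpr), scaled by TMM and fitted over all 5 groups without a block in edgeR 4.0.16 (R 4.3.3). The fit had 5 residual degrees of freedom, and quasi-likelihood tests were adjusted by Benjamini-Hochberg over 19465 genes. The fit was also run on simulated counts with the same spread for all genes and seeded changes in DEP alone. That setting differs from these data, and no conclusion is drawn from it here. Alternatives were library size alone, relative log expression factors, no filter or a stricter one, DESeq2 1.42.0, limma 3.58.1 (voom), the compared groups alone, a replicate block, a GC and length correction and leaving out each library.

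Over all tested genes, correlations of same-numbered deviations between groups ran from -0.0465 to 0.0471, so replicate numbers marked no batch shared by most genes. Such correlations cannot show a batch that touches few genes. Totals of 57222381 to 72973100 counts set the precision, and Wilson intervals and counts cover counting error only. Promoter windows came from RefSeq, with 8 of 10 members matched (ELAVL3 and RBFOX2 were not), and symbols from the deposited table. The members and lists were chosen with earlier results of these data known. Every paralog is named, and from each further list at most 4 genes, those called the same way in the most treatments with ties by the smallest p; SRRM4 and GAP43 fall outside this rule. Some genes that this rule names are not reported here.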

Additional observations from a re-analysis of the deposited data

How the results depend on the processing

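Of the single-member values recomputed, 2117 stayed on their side of the threshold, 59 gained a call and 55 lost one. Of the 2117, 58 changed sign, all of them values that were not called. With library size alone, members called higher against vehicle numbered 2 after DEP, 3 after DProP, 4 after DPP and 3 after Mix, and 1 was lower after Mix. The counts over all genes with that scaling, given above, also moved toward higher calls. These member counts are therefore not read as a result about the members. The other member counts of this section have no share over all genes beside them and are not read so either. The stricter filter gave 2 higher after DProP and 3 after DPP, DESeq2 gave 1 after DPP, and the GC and length correction gave 1 after DEP and 1 after DPP. For DEP against DProP, 2 members were higher under the stricter filter, DESeq2, limma-voom, the 2 groups alone, the joint adjustment and the GC and length correction, and 0 with the replicate block or without the vehicle libraries. DESeq2 gave 1 higher for DProP against DPP, and the 2 groups alone gave 2 for Mix against DEP. The cause was not tested.

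Leaving out 1 library at a time gave 0 to 1 members higher and 2 to 4 lower for DEP against vehicle, 0 to 1 and 4 to 4 for DProP, 0 to 2 and 4 to 4 for DPP, and 0 to 1 and 0 to 3 for Mix. Between treatments, members higher ranged over 0 to 2 for DEP against DProP, 2 to 3 for DEP against DPP, 0 to 2 for DProP against DPP, 0 to 0 for Mix against DEP, 1 to 4 for Mix against DProP and 3 to 4 for Mix against DPP, with 0 lower in each, and the joint test over 4 treatments called 3 to 4. A group left with 1 library is assumed to vary like the others. The replicate block ended 4 calls of members: ELAVL3 in DEP against DProP (0.0624), ELAVL4 in DEP against DPP (0.0619) and in Mix against DProP (0.071), and NOVA2 in the joint test (0.0614). The joint test was not run for 2 groups alone or the joint adjustment. Depth limits RBFOX1 and CELF4, at 11 to 97 counts per library.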
